A study of Arabidopsis thaliana with 9 samples.

Results

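The CIN-class TCP growth regulators described here are 7 transcription factor genes of Arabidopsis thaliana: TCP2, TCP3, TCP4, TCP5, TCP10, TCP17 and TCP24. They were taken by symbol and locus from a table of 38299 genes, and all 7 were found in it and passed the filter on low counts. RNA was sequenced from sepals, the outermost floral organs, in 9 libraries, 3 from each genotype. The genotypes were the mutant atml1-3, the mutant gir1-1 and wild-type Col-0 (WT). ATML1 encodes a homeodomain transcription factor of the epidermis, and GIR1 encodes a small adaptor protein that the series title places in a repression module with ATML1 and the co-repressor TOPLESS (TPL). Each library came from 200 sepals dissected from 50 unopened buds at floral stage 12. Growth was at 23 °C under continuous light for all plants, and the labels put every library in one batch. The labels do not say whether the libraries of a genotype came from separate plants, so p-values measure only the spread between these libraries.

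TCP proteins bind DNA through a shared basic helix-loop-helix type domain, and those of the CIN class restrain growth by moving leaf and petal cells from division to differentiation. Some CIN-class transcripts carry a site for the microRNA miR319, which guides their cleavage, and plants with excess miR319 have crinkled, overgrown leaves and altered petals. The remaining CIN-class genes lack the site, and TCP13, an additional gene of the class that is not among the 7, belongs with them. CIN-class proteins have been reported to act on genes of jasmonate synthesis, cell-cycle inhibition, auxin signalling and organ boundaries.

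The miR319 sites are shown because they divide the 7 genes into the groups used below. Mature miR319a and miR319b have the same sequence. Bases 2 to 8 from the 5′ end, the seed, are in capitals, and all sequences are from the RefSeq TAIR10.1 genome and annotation.
miR319a, chr4:12353109-12353129, plus strand: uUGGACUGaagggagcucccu
miR319b, chr5:16660469-16660489, minus strand: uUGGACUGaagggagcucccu
miR319c, chr2:17029870-17029890, plus strand: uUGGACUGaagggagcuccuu

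The best-pairing window of 21 bases in each member's RefSeq mRNAs was found with a penalty of 1 for each unpaired base and 0.5 for each G:U pair with miR319a. Capitals mark site bases that do not form a Watson-Crick pair with miR319a. All 5 sites printed lie in the coding sequence.
TCP2, chr4:10163402-10163422, minus strand: CAggGgGAcccuucaguccaa
TCP3, chr1:19850522-19850542, minus strand: GAggGgUCcccuucaguccaU
TCP4, chr3:5063300-5063320, plus strand: GAggGgUCcccuucaguccaG
TCP10, chr2:13221210-13221230, minus strand: aAggGgUAcccuucaguccaG
TCP24, chr1:10628989-10629009, minus strand: UAggGgGAcccuucaguccaa

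The penalty was 3.5 for TCP10, 4 for TCP4 and 4.5 for TCP2, TCP3 and TCP24. Of 31342 genes with an mRNA, 0.0287% had a window with a penalty as low as that of TCP10, 0.0957% one as low as that of TCP4 and 0.29% one as low as 4.5. The lowest penalty of any gene was 3, in MYB33, MYB65 and MYB104, which belong to a MYB family known to pair with the related miR159. TCP17 reached only 6, a penalty that 6.69% of genes matched, TCP13 reached 7.5 and TCP5 8.5. The 5 sites shared the stretch CCCUUCAGUCCA, bases 9 to 20 of the site, which pairs fully with the miRNA and was present in 7 genes, or 0.0223% of those scanned. The other 2 genes with the stretch were AT1G48090 and AT5G37450. A match to this pattern is a description of the letters and not evidence of cleavage in these sepals. TCP2, TCP3, TCP4, TCP10 and TCP24 are called the miR319-site genes below.

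**Figure D1:**
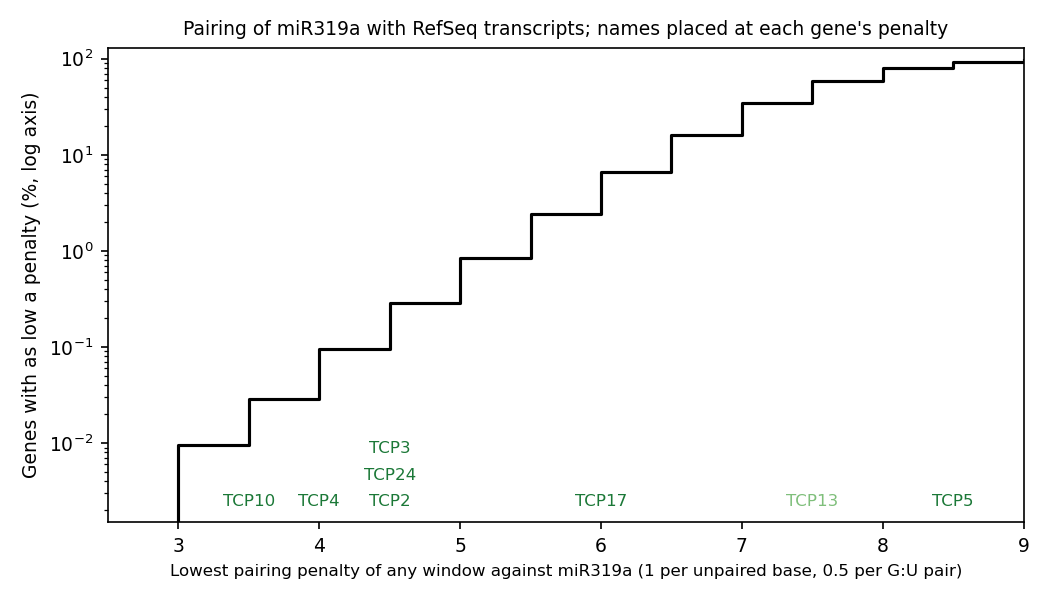
The line gives the percentage of 31342 genes (log axis) whose best window has a pairing penalty against miR319a at or below the value on the horizontal axis; gene names stand at their own penalty, with no meaning to their height. TCP10, TCP4, TCP2, TCP3 and TCP24 lie between 3.5 and 4.5, TCP17 lies at 6, TCP13 at 7.5 and TCP5 at 8.5.

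The genes MIR319A, MIR319B and MIR319C had 0 counts in every library. With totals of 15328056 to 20148807 counts per library, 3 counts correspond to at most 0.196 CPM (counts scaled to a common library size), which is the limit that a count of 0 allows, for counting error only. The rows are those of the precursor genes, and mature miRNAs were not measured, so the counts say nothing about the level of the mature miRNA.

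Levels are given as the deposited FPKM, which are divided by gene length and can be set against each other between genes. In bulk tissue, fewer cells expressing a gene and less RNA per cell cannot be told apart. TCP4 and TCP10 had the highest means of the 7. TCP4, which in leaves promotes exit from division, had 17.6, 17.6 and 16.8 FPKM in the atml1-3 libraries, 19.2, 10.8 and 12.8 in gir1-1, and 16.6, 17.1 and 25.3 in WT. TCP10 had 23.3, 17.3 and 22.5 FPKM in atml1-3, 10.7, 15.5 and 16.9 in gir1-1, and 11.1, 12.8 and 34.5 in WT. For both genes WT replicate 3 was the highest of the 9 libraries, and the WT libraries overlapped those of each mutant.

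TCP2 and TCP24 formed a middle pair. TCP2 had 11.8, 12.2 and 11.9 FPKM in atml1-3, 10.1, 7.32 and 10.96 in gir1-1, and 8.91, 9.14 and 16.4 in WT. TCP24, which in leaves has been reported to restrain cell proliferation, had 13.9, 11.7 and 13.9 FPKM in atml1-3, 9.57, 7.97 and 9.83 in gir1-1, and 7.01, 7.83 and 14.6 in WT. The 3 atml1-3 libraries lay above the 3 gir1-1 libraries for both genes, and between WT replicate 3 and the other WT libraries.

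The remaining members were low. TCP5, known to limit petal growth, had 3.61, 3.92 and 5.56 FPKM in atml1-3, 1.91, 3.00 and 4.77 in gir1-1, and 3.21, 2.77 and 3.95 in WT. TCP17, known for a role in hypocotyl elongation in shade, had 2.07, 1.79 and 1.83 FPKM in atml1-3, 2.33, 2.47 and 1.18 in gir1-1, and 2.59, 3.82 and 1.46 in WT. TCP3, whose protein activates AS1 and MIR164A in seedlings, had 3.90, 2.58 and 1.51 FPKM in atml1-3, 1.37, 1.05 and 2.19 in gir1-1, and 0.529, 1.41 and 3.12 in WT. All 3 genes had overlapping libraries in every pair of genotypes. The counts behind TCP3 were 115, 100 and 47 in atml1-3, 45, 32 and 82 in gir1-1, and 17, 43 and 98 in WT, and for TCP17 they ranged from 32 to 84 over the 9 libraries.

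TCP3 needs a caution that the other members do not. The annotated antisense gene AT1G53233 covers 82.6% of the exonic bases of TCP3, and whether the authors' counting used strand is not given in the sources used here, so reads of the pair cannot be told apart. No other member had an annotated gene over its exons. Of the 50-base stretches of the members' transcripts, 0% occurred elsewhere in the genome, so reads shared with a near-identical copy were not found for any of them.

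**Figure D2:**
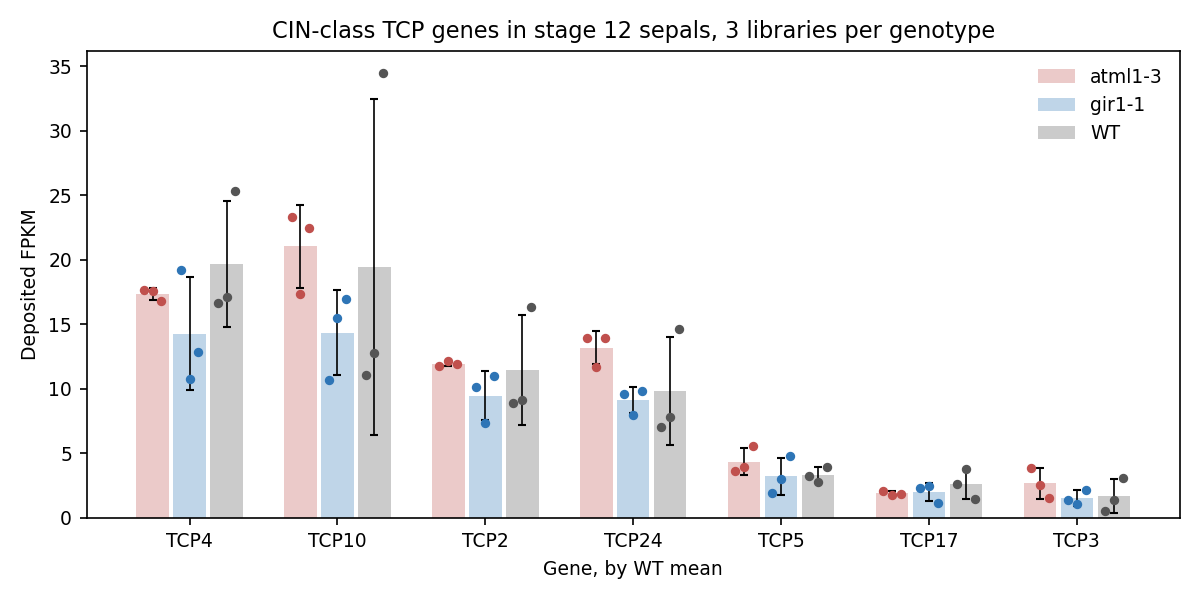
Deposited FPKM of the 7 genes, ordered by the WT mean, in atml1-3, gir1-1 and WT sepals; points are libraries, bars are means and whiskers are standard deviations (n = 3 each). TCP4, TCP10, TCP2 and TCP24 stand above TCP5, TCP17 and TCP3, and the highest WT point of the first 4 genes is replicate 3.

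Ordered by WT mean, the levels were 19.7 ± 4.89 FPKM for TCP4, 19.5 ± 13.04 for TCP10, 11.5 ± 4.23 for TCP2, 9.81 ± 4.17 for TCP24, 3.31 ± 0.596 for TCP5, 2.62 ± 1.18 for TCP17 and 1.69 ± 1.32 for TCP3 (SD, n = 3 each). Neighbours in this order were compared within libraries over all 9, as the difference in log2(FPKM + 1), by an exact two-sided sign-flip permutation test adjusted by the Benjamini-Hochberg method over 6 pairs. TCP10 exceeded TCP2 in 9 of 9 libraries, by 0.63 on the log2(FPKM + 1) scale (SD 0.34, exact permutation adjusted p = 0.0117). TCP24 exceeded TCP5 in 9 of 9 libraries, by 1.33 (SD 0.34, exact permutation adjusted p = 0.0117). The other 4 neighbouring pairs did not pass: TCP4 was above TCP10 in 4 of 9 libraries, TCP2 above TCP24 in 6, TCP5 above TCP17 in 7 and TCP17 above TCP3 in 5. The closest to the threshold was TCP5 over TCP17, with a difference of 0.55 (SD 0.62) and an exact permutation adjusted p of 0.0703. With the 3 WT libraries alone 0 pairs passed, since 3 libraries cannot give a p under 0.05 in this test. The WT libraries set the order and are among the 9 tested, so the p-values are not independent of it.

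The 5 miR319-site genes held between 88.0% and 94.6% of the summed FPKM of the 7 genes in every library. Their sum was 66.2 ± 4.62 FPKM in atml1-3 and 48.8 ± 5.42 in gir1-1, against 62.1 ± 27.6 in WT (SD, n = 3 each). TCP5 and TCP17 together gave 6.26 ± 0.979 FPKM in atml1-3 and 5.22 ± 0.883 in gir1-1, against 5.93 ± 0.603 in WT. The WT sum of the miR319-site genes ran from 44.2 to 93.9 FPKM, which covered the atml1-3 range of 61.3 to 70.5 and overlapped the gir1-1 range of 42.6 to 52.7.

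TCP13 had a higher WT mean than any other TCP gene. It had 34.5, 42.3 and 41.1 FPKM in atml1-3, 47.8, 34.1 and 68.9 in gir1-1, and 52.0, 46.1 and 29.6 in WT. The ratio of TCP13 to the sum of the 7 members lay between 0.452 and 0.631 in atml1-3, between 0.709 and 1.17 in gir1-1 and between 0.298 and 1.04 in WT. WT replicate 3 was the lowest of the 9 libraries for TCP13.

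Set among all 24 TCP genes in WT, the members were spread over the expressed range. TCP8 at 27.1 ± 1.56 FPKM, a class I gene, stood between TCP13 and TCP4, and TCP18, the branching repressor also called BRC1, had 16.8 ± 1.97 FPKM (SD, n = 3 each). TCP1, TCP6, TCP9, TCP11, TCP12 and TCP16 all had WT means below 0.1 FPKM. In WT, TCP4 lay above 78.2% of the genes with counts, TCP10 above 77.9%, TCP2 above 67.9%, TCP24 above 64.8%, TCP5 above 47.2%, TCP17 above 44.3% and TCP3 above 39.6%.

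**Figure D3:**
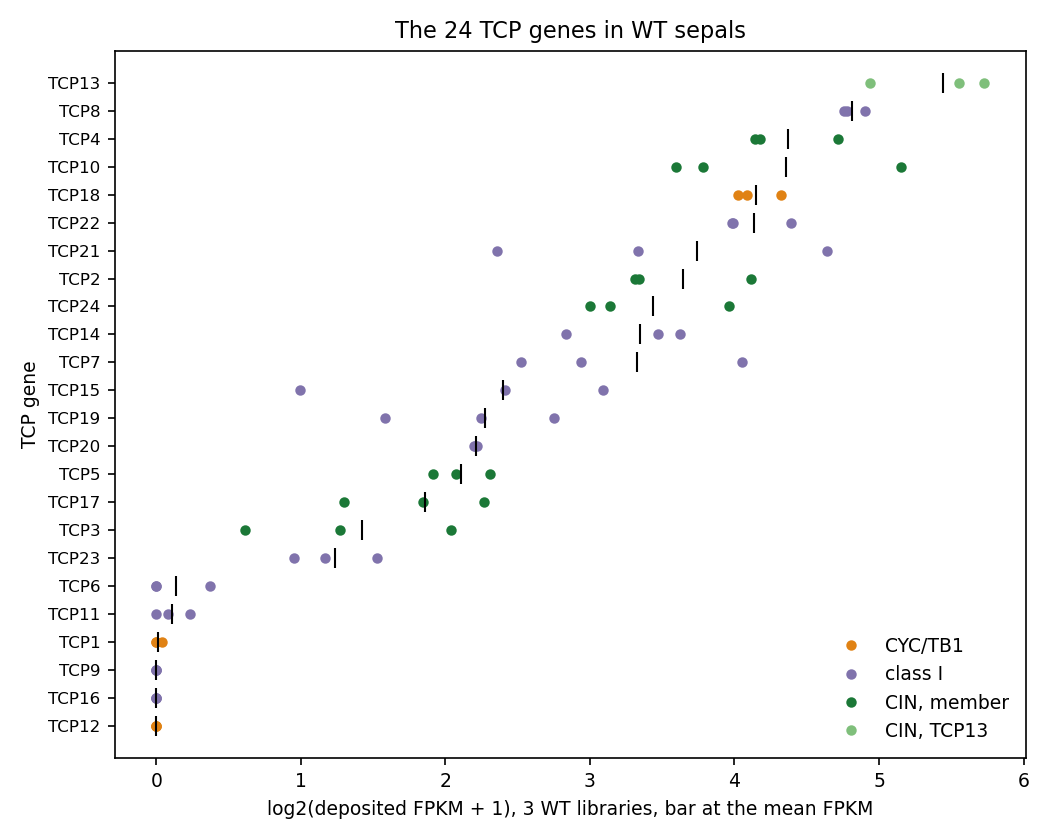
The 24 TCP genes by log2(deposited FPKM + 1) in the 3 WT libraries (points), with a bar at the mean FPKM and colours for CIN-class members, TCP13, CYC/TB1-class and class I genes. TCP13 is at the top, TCP4 and TCP10 follow TCP8, and TCP5, TCP17 and TCP3 lie just above TCP23 and the genes near 0.

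Libraries of a genotype were uneven across the whole data set. In a principal component analysis of 500 genes with the highest variance, 0 of them members, component 1 carried 45.3% of the variance and put gir1-1 replicate 3 at -37.2, with the other libraries between -14.0 and 19.5. The 4 libraries with the highest scores were the 3 of atml1-3 and WT replicate 3. The labels were checked on the mutated genes: ATML1 had 124, 345 and 266 counts in atml1-3 and 424, 392 and 325 in gir1-1, against 522, 537 and 872 in WT, and GIR1 had 14, 10 and 17 counts in atml1-3 and 12, 10 and 7 in gir1-1, against 26, 36 and 73 in WT. Both genes were thus low in both mutants, whose libraries overlapped, so these counts set the mutants apart from WT but not from each other. Libraries wholly below those of WT were found for 5.29% of genes in gir1-1 and 8.64% in atml1-3. In edgeR neither gene passed, with a smallest adjusted p of 0.385 in gir1-1 against WT and 0.366 in atml1-3 against WT. DESeq2 called GIR1 in gir1-1 (adjusted p = 0.0367) and ATML1 in atml1-3 (adjusted p = 0.00508). The edgeR test that called 0 members thus also missed the mutated genes. Sepal identity genes summed to between 755 and 972 CPM, of which AP1 had 2922 to 4960 counts. Of the 4 tapetum markers A9 and MS1 had 0 counts in every library, and the 4 summed to at most 0.687 CPM.

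In gir1-1 against WT, 0 of the 7 members passed an adjusted p of 0.05 in edgeR's quasi-likelihood test, where 0.0156% of 19174 genes did. None of the 7 passed an unadjusted p of 0.05 either, where 7.52% of genes did, and DESeq2, limma-voom and the authors' deposited table called 0 of the 7 (0.749%, 0.0313% and 0.454% of genes called). All 7 log2 fold changes were below 0, with a median of -0.27, beside a median of 0.00 over all genes tested, of which 50.7% were above 0. TCP4 had -0.46 ± 0.23 (SE; 95% interval -0.98 to 0.06) and an edgeR adjusted p of 0.705. TCP10 had -0.44 ± 0.39, with an interval from -1.30 to 0.42. TCP2 had -0.27, TCP17 -0.40, TCP3 -0.13, TCP24 -0.10 and TCP5 -0.03, and every interval included 0.

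For 5 of the 7 genes the direction turned when WT replicate 3 was left out. Without it the log2 fold changes in gir1-1 were 0.07 for TCP2, 0.67 for TCP3, 0.11 for TCP5, 0.27 for TCP10 and 0.30 for TCP24, while TCP4 had -0.24 and TCP17 -0.68, and none passed the test. TCP5 also turned without gir1-1 replicate 1 (0.24) or replicate 2 (0.02), and TCP3 without gir1-1 replicate 2 (0.09). No member had gir1-1 libraries that all lay above or all lay below those of WT, as 5.17% and 5.29% of genes did. Without WT replicate 3, the count was 1 higher, TCP24, and 1 lower, TCP17, where 11.1% and 10.3% of genes met the same rule. For this rule, leaving out that library was chosen after seeing the data. A p that misses the threshold does not show that the levels were equal, and for TCP3 the interval ran from -1.45 to 1.2.

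In atml1-3 against WT, 0 of the 7 members passed in edgeR, limma-voom, DESeq2 or the authors' deposited table, where 0%, 0%, 0.822% and 1.24% of genes did. At an unadjusted p of 0.05 edgeR called 0 members and 11.7% of genes. The log2 fold changes were above 0 for 5 members and below 0 for 2, with a median of 0.12, beside a median of -0.01 over all genes. TCP24 had 0.44 ± 0.26 (SE; 95% interval -0.15 to 1.02) and an edgeR adjusted p of 0.544. TCP3 had the largest value, 0.67 ± 0.59, with an interval from -0.65 to 1.98. TCP5 had 0.41, TCP10 0.12 and TCP2 0.07, while TCP4 had -0.17 and TCP17 -0.46.

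No member had atml1-3 libraries wholly above or wholly below those of WT, as 9.85% and 8.64% of genes did. Leaving out WT replicate 3 gave 5 members higher (TCP2, TCP3, TCP5, TCP10 and TCP24) and 1 lower (TCP17). With the 2 remaining WT libraries, 18% and 17.5% of genes met the rule. That library was picked after seeing the data, and it was the highest of the 9 for TCP2, TCP4, TCP10 and TCP24. Its removal lowers the WT levels of these genes by construction, so the count is not an independent check. The log2 fold changes were then 0.84 for TCP24, 0.82 for TCP10, 1.47 for TCP3, 0.55 for TCP5, 0.42 for TCP2, 0.05 for TCP4 and -0.75 for TCP17. The smallest edgeR adjusted p among them was 0.132, for TCP24.

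**Figure D4:**
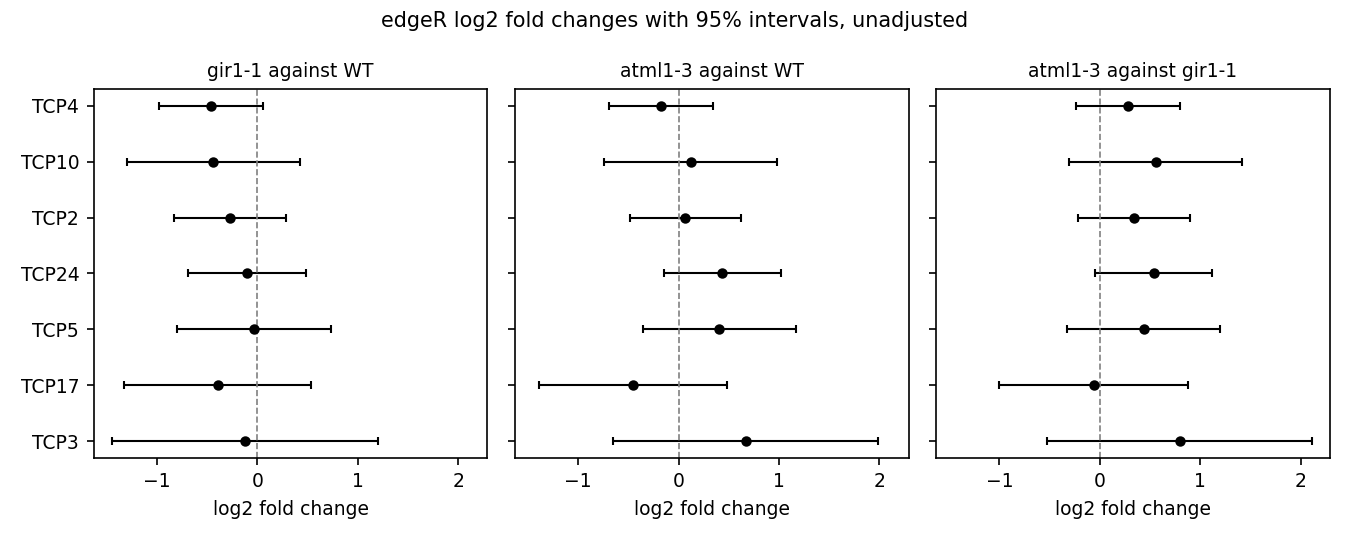
edgeR log2 fold changes (points) with unadjusted 95% intervals (lines) of the 7 genes for gir1-1 against WT, atml1-3 against WT and atml1-3 against gir1-1, with a dashed line at 0. Every interval includes 0; in the direct comparison of the mutants 6 points lie to the right of 0 and TCP17 lies at -0.06.

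The log2 fold changes of atml1-3 over gir1-1 set the mutants against each other, while their errors and p-values come from the fit of all 9 libraries, WT included. Here 0 of the 7 members passed in edgeR, where 0.0834% of genes did, and 0 passed in limma-voom, DESeq2 or the authors' deposited table, where 0.0834%, 0.764% and 1.31% did. At an unadjusted p of 0.05 edgeR called 0 members and 7.35% of genes, and in the authors' deposited table TCP24 had an unadjusted p of 0.0114 and TCP10 one of 0.024, with adjusted p-values of 0.27 and 0.38. The log2 fold changes were above 0 for 6 members and below 0 for TCP17, with a median of 0.44, beside a median of 0.00 over all genes. TCP2, TCP10 and TCP24 had all 3 atml1-3 libraries above all 3 gir1-1 libraries, a rule that 8% of genes met, and 0 members had them all below, as 7% of genes did. The same 3 genes met it under total-count scaling, as 11.1% of genes did, and under DESeq2 size factors, as 7.75% did.

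TCP24 had a log2 fold change of 0.54 ± 0.26 in atml1-3 against gir1-1 (SE; 95% interval -0.05 to 1.12), with an edgeR adjusted p of 0.696. TCP10 had 0.56 ± 0.39 with an interval from -0.30 to 1.42, and TCP2 had 0.34 ± 0.25 with an interval from -0.21 to 0.90. TCP3 had 0.80, TCP5 0.44, TCP4 0.29 and TCP17 -0.06. Leaving out gir1-1 replicate 3, the library that stood apart, put 5 members higher (TCP2, TCP3, TCP5, TCP10 and TCP24) and TCP17 lower. With 2 gir1-1 libraries, 13% and 12.8% of genes met the rule, and this library too was picked after seeing the data. The petal and stamen genes AP3, PI and AG summed to between 48.9 and 71.7 CPM in atml1-3 and between 29.6 and 46.9 CPM in gir1-1. Most of each sum was AP3, with 47.4, 56.2 and 65.9 CPM in atml1-3 and 28.1, 40.4 and 46.0 in gir1-1. Its atml1-3 libraries all lay above those of gir1-1, as 8% of genes did, while PI and AG overlapped between the mutants. None of the 3 was at 0 in any library, 0 of 3 passed the test, AP3 had a log2 fold change of 0.57 ± 0.29, AG one of 1.41 ± 0.80 and PI one of -0.48 ± 0.93, and their part in the result was not tested.

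The members were also compared with each other across libraries, as log2(CPM + 1), in 21 pairs. All 10 pairs within the miR319-site genes had a positive Pearson correlation over the 9 libraries, between 0.397 and 0.864. Of these, 2 passed after adjustment over the 21 pairs. TCP2 and TCP24 had r = 0.864 and rho = 0.883 (exact permutation p = 0.00147 and 0.00308, adjusted 0.0304 and 0.0215), and TCP24 and TCP10 had r = 0.860 and rho = 0.900 (exact permutation p = 0.00289 and 0.00203, adjusted 0.0304 and 0.0215). By Spearman's rho 5 of the 10 pairs passed. The matching counts for pairs of other genes were not computed, so these counts do not set the miR319-site genes apart from other genes. Leaving out the 2 libraries farthest from the median of the first gene gave r = 0.944 for TCP2 with TCP24 and 0.783 for TCP24 with TCP10. The same step left 8 of the 10 pairs positive, with TCP2 and TCP4 at 0.00 (0.766 in all libraries) and TCP4 and TCP10 at -0.17.

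The number that passed depended on the libraries and on the scaling. Without WT replicate 3, 9 of the 10 pairs were positive, 0 passed, and TCP4 with TCP10 had r = -0.09. Without 1 other library in turn, all 10 pairs were positive and between 0 and 3 passed; leaving out WT replicate 2, gir1-1 replicate 3 or atml1-3 replicate 2 also gave 0, and WT replicate 1 or atml1-3 replicate 1 gave 1. Under total-count scaling 7 passed. After each genotype's mean was taken out, the 10 correlations ran from 0.309 to 0.922. The 10 pairs of a miR319-site gene with TCP5 or TCP17 ran from -0.636 to 0.647, with 4 positive and 0 passing.

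TCP17 had a negative correlation with each of the other 6 members, from -0.637 with TCP5 to -0.09 with TCP4, and none of the 6 passed. In WT replicate 3 TCP2, TCP4, TCP10 and TCP24 were the highest of the 9 libraries and TCP3 the second, while TCP17 was the eighth and TCP5 the fourth. The class I genes TCP7, TCP15 and TCP21, with miR319a penalties of 8, 8.5 and 8.5, were also highest in that library. Of the other class I genes tested, TCP8, TCP14, TCP19, TCP20, TCP22 and TCP23 were not, so the high level there was not particular to the miR319-site genes. On the centred log2(CPM + 1) scale TCP10 stood at 0.99 there, TCP3 at 0.67, TCP4 at 0.59, TCP2 at 0.58, TCP24 at 0.47, TCP17 at -0.37 and TCP13 at -0.53.

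**Figure D5:**
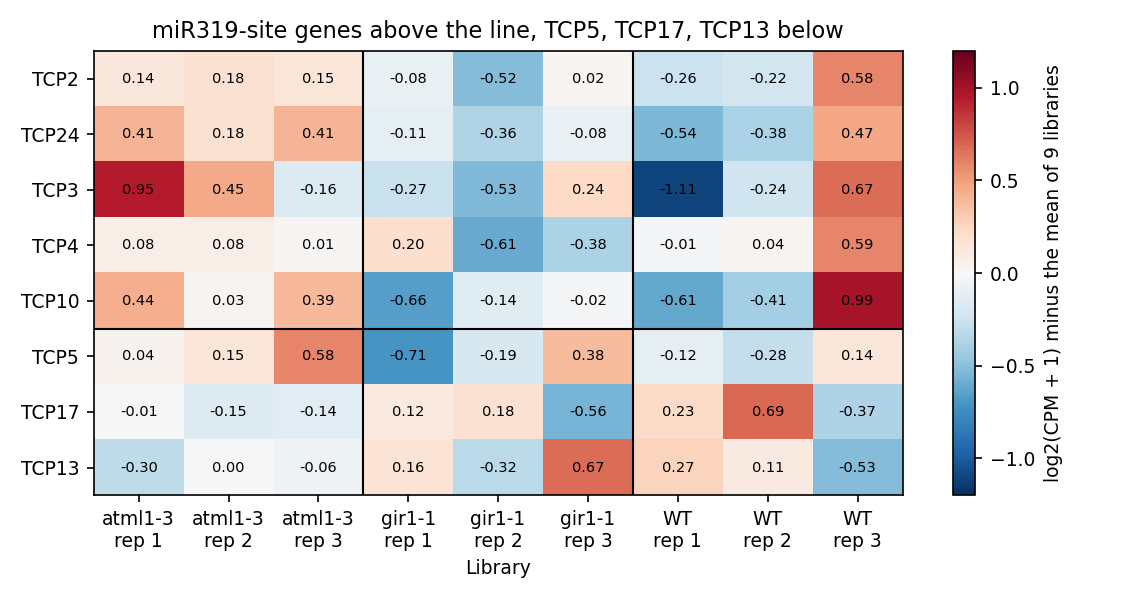
log2(CPM + 1) of each gene minus its mean over the 9 libraries, in colour and as printed values, for the 5 miR319-site genes above the line and TCP5, TCP17 and TCP13 below it; columns are the libraries of atml1-3, gir1-1 and WT. WT replicate 3 is above the mean for all 5 miR319-site genes and below it for TCP17 and TCP13.

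Among 11587 other genes with a mean of at least 10 CPM, the 5 with a pattern most like the mean of the members over the 9 libraries were HB34 with r = 0.964, AT3G54400 with 0.960, AT2G43490 with 0.954, CKX7 with 0.952 and AT5G01970 with 0.950. HB34 encodes a zinc-finger homeodomain protein and CKX7 a cytokinin oxidase. HB34 had 51.3, 42.8 and 45.5 CPM in atml1-3, 34.1, 33.2 and 39.2 in gir1-1, and 35.7, 41.2 and 56.7 in WT. With all libraries, 218 genes, or 1.88%, had r over 0.8, and 281 had r under -0.8. Without WT replicate 3 the 5 named genes had r between 0.923 and 0.944.

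Of 12 genes reported in other work as acting downstream of CIN-class TCPs, 10 could be tested and 0 passed in edgeR in any comparison. Over all genes, 0% to 0.0834% passed. At an unadjusted p of 0.05, 1 of the 10 did in each comparison. The share over all genes was 7.52% for gir1-1 over WT, 11.7% for atml1-3 over WT and 7.35% for atml1-3 over gir1-1. The median log2 fold change of the 10 genes was -0.15 for gir1-1 over WT, -0.12 for atml1-3 over WT and 0.14 for atml1-3 over gir1-1. LOX2, a jasmonate synthesis gene that TCP4 binds, was among the highest genes of the tissue, with 881 ± 312 FPKM in atml1-3 and 970 ± 165 in gir1-1, against 948 ± 390 in WT (SD, n = 3 each). KRP1, a cyclin-dependent kinase inhibitor that TCP4 activates in leaves, had 721, 811 and 701 counts in atml1-3, 486, 611 and 637 in gir1-1, and 386, 517 and 597 in WT. In atml1-3 its log2 fold change over WT was 0.51 ± 0.19, with an edgeR adjusted p of 0.384.

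PIF4, a growth-promoting factor that TCP5 and its close relatives act on, depended on the tool. It had 66, 72 and 155 counts in gir1-1, 14, 50 and 26 in atml1-3, and 16, 14 and 21 in WT, so the gir1-1 libraries lay above all others. Over all genes, 5.17% had gir1-1 libraries wholly above those of WT. For 7% the atml1-3 libraries lay wholly below those of gir1-1. In gir1-1 its log2 fold change over WT was 2.39 ± 0.46 with an edgeR adjusted p of 0.216, while DESeq2 gave an adjusted p of 0.000915 and the authors' deposited table gave 0.0004. In atml1-3 against gir1-1 it was -1.69 ± 0.44, with an adjusted p of 0.477 in edgeR and 0.0444 in the authors' deposited table. CO, a flowering regulator, had -0.75 ± 0.37 in gir1-1 against WT, and YUC5 and GIS had 0 counts in every library.

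Partner and neighbouring pathways gave 0 edgeR calls as well. Of 9 TIE and TPL-family genes, which encode the adaptors and co-repressors that bind CIN-class proteins, 5 could be tested. TPL had a log2 fold change of -0.38 ± 0.19 in gir1-1 against WT, and TPR3 had -0.48 ± 0.22 in atml1-3 against WT, with edgeR adjusted p-values of 0.707 and 0.426. TIE1, the adaptor between CIN-class TCPs and TPL, had 0, 3 and 1 counts in atml1-3 and 0 in all libraries of gir1-1 and of WT. Of 14 genes for GRF growth promoters, their GIF partners and miR396, which represses GRF genes, 6 could be tested, and GRF3 had 1.02 ± 0.64 and GIF3 0.88 ± 0.46 in atml1-3 against WT. Of 6 boundary genes CUC3 alone could be tested, with 1 to 19 counts per library, and the 4 NGATHA genes, which act with CIN-class TCPs in leaf margin growth, had log2 fold changes between -0.60 and 0.20 over the 3 comparisons.

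Outside the CIN class, TCP18 had 252, 408 and 258 counts in atml1-3, 576, 339 and 397 in gir1-1, and 745, 596 and 586 in WT. The atml1-3 and the gir1-1 libraries all lay below those of WT, as 8.64% and 5.29% of genes did. The highest gir1-1 library had 32.6 CPM, close to the lowest WT library at 34.4. In atml1-3 its log2 fold change over WT was -1.15 ± 0.22, with an adjusted p of 0.366 in edgeR, 0.00229 in DESeq2 and 9.14e-05 in the authors' deposited table. Of 13 class I genes 9 could be tested and 0 passed in edgeR, where 0% to 0.0834% of genes did. TCP14 had -0.60 ± 0.23 and TCP15 0.81 ± 0.59 in atml1-3 against gir1-1.

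Markers of other tissues and states were read beside the members. The nectary regulator CRC had 0, 0 and 2 counts in gir1-1 and 19, 39 and 24 in atml1-3, against 20, 36 and 16 in WT. Its adjusted p in gir1-1 against WT was 0.151 in edgeR, 0.0037 in DESeq2 and 0.0157 in the authors' deposited table. In atml1-3 against gir1-1 it was 0.0736 in edgeR, 0.0413 in edgeR with no filter on low counts, 0.00187 in DESeq2 and 0.00403 in the authors' deposited table. The nectary sugar transporter SWEET9 had 0 in all gir1-1 libraries and 0, 24 and 18 in atml1-3, against 63, 9 and 0 in WT. The 4 cell division genes, KNOLLE among them, summed to between 2.51 and 5.45 CPM in atml1-3 and between 5.06 and 5.66 in gir1-1, against 6.81 to 8.56 in WT. Their log2 fold changes were below 0 for 4 of 4 in both mutants against WT and 0 passed, with KNOLLE at -1.55 ± 0.47 in atml1-3. Over all genes, 50.7% were above 0 in gir1-1 against WT and 48.9% in atml1-3 against WT. By gene, KNOLLE alone lay wholly below WT in both mutants, and the others of the list overlapped WT in atml1-3. Libraries wholly below those of WT were found for 5.29% of genes in gir1-1 and 8.64% in atml1-3. The carpel and ovule list, CRC included, summed to between 6.85 and 10.7 CPM in atml1-3, 4.70 and 6.22 in gir1-1 and 5.29 and 6.01 in WT. Most of the atml1-3 sum was SHP1, with 8.62, 4.39 and 7.99 CPM. Its atml1-3 libraries all lay above those of WT, as 9.85% of genes did, and overlapped those of gir1-1. STK had 0 counts in every atml1-3 library, and CRC and SHP2 overlapped between atml1-3 and WT. The 3 senescence genes had 0 calls in edgeR, where 0% to 0.0834% of genes passed. In WT replicates 1, 2 and 3, SAG12 had 2, 2 and 96 counts, ORE1 890, 858 and 262, and NYE1 2151, 1966 and 1584. SAG12 was uneven in the mutants too, from 1 to 141 counts in gir1-1 and from 1 to 92 in atml1-3. The part of these tissues and states in the members' levels was not tested.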

How the data were processed

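RNA-seq of 9 sepal libraries was analysed from one table of the whole series. The members and lists were chosen with earlier results of these data known. The authors deposited raw counts per gene, FPKM, and for each pair of genotypes a log2 fold change with a p-value and adjusted p-value, per the file headers. The deposited log2 fold change between the mutants has gir1-1 on top and was used only for its p-values. The build is TAIR10, per the submitters' processing notes; the aligner, counter and strand setting are not given in the sources used here. Start and end equalled those of RefSeq TAIR10.1 for 100.00% of 38286 genes matched by identifier. The column of gene families was not used.

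Counts were tested with edgeR 4.0.16 (R 4.3.3): TMM scaling, filterByExpr, the quasi-likelihood F test, one fit of all 9 libraries with genotype as the factor, and Benjamini-Hochberg adjustment over 19174 genes. DESeq2 1.42.0, limma-voom (limma 3.58.1), other scalings, no filter, a replicate block and each library left out were alternatives. SE is the absolute log2 fold change over the square root of F. Intervals cover 95%. Totals were 15328056 to 20148807 counts. Libraries of a genotype differed by more than sampling noise, so each counts as 1 replicate. Same-numbered libraries of different genotypes had deviations correlated between -0.172 and 0.138 over 9 pairs, 1 of them over 0.1, so the numbers did not pair them. Scripts were tested on simulated data. Named genes are the members, the mutated genes, TCP13, the MIR319 genes, TIE1 and LOX2, list genes called or else the 2 with the smallest p in a comparison, and the 5 most like the members; other genes were chosen after their values were seen, among them MYB33, MYB65, MYB104, YUC5, GIS, A9 and MS1. Values of the senescence, sepal identity and some other list genes that passed no test are given as sums or counts only.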

Additional observations from a re-analysis of the deposited data

How the results depend on the processing

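No member passed in any of 16 alternatives of each comparison; of 336 member fold changes recomputed, 317 kept their direction and 19 did not. Calls over all genes were 3 for gir1-1 over WT, 0 for atml1-3 over WT and 16 for atml1-3 over gir1-1; they were 15, 1 and 59 with no filter and 153, 156 and 156 with DESeq2, 6 in gir1-1 against WT with limma-voom and 42 in the direct comparison fitted on its 2 genotypes. Leaving out 1 library gave 0 to 6, 0 to 5 and 1 to 30. The replicate block left 1 call in gir1-1 against WT and turned TCP17 in the direct comparison to 0.026; total counts turned it to 0.00052 and limma-voom to 0.034, and limma-voom turned TCP3 in gir1-1 against WT to 0.19. The block changed no call of a member.

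With 1 library left out, log2 fold changes in gir1-1 against WT ran from -0.43 to 0.071 for TCP2, -0.55 to 0.67 for TCP3, -0.43 to 0.24 for TCP5, -0.72 to 0.27 for TCP10 and -0.30 to 0.30 for TCP24. In atml1-3 against WT they ran from -0.085 to 0.42 for TCP2, -0.28 to 0.050 for TCP4 and -0.16 to 0.82 for TCP10, and in the direct comparison from -0.33 to 0.11 for TCP17. The difference of TCP4 over TCP10, -0.04 on the log2(FPKM + 1) scale, ran from -0.14 to 0.020, and was 0.17 in the WT libraries alone, where 0 neighbouring pairs passed against 2 in all libraries and 2 to 3 with 1 left out. Pairs of miR319-site genes that passed were 2, 7 under total counts and 0 to 3 with 1 library left out; members with no overlap between genotypes were 0 to 2, 0 to 6 and 3 to 6 without WT or gir1-1 replicate 3. These last settings were chosen after seeing the data. The cause was not tested for any of these shifts. Low counts of TCP3 and TCP17 and 3 libraries per genotype limit what could be detected.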
